A study of Xenopus laevis with 4 samples.

Results

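The genes described here are transcription factors and secreted antagonists of the Spemann organizer, the dorsal signalling centre of the amphibian gastrula. They were chosen by name, as every probe set that the platform annotation assigns to 1 gene named gsc, otx2, lhx1, noto, foxa4, hhex, nog, cer1 or dkk1, without regard to case or to the final .L or .S that marks the homeologous gene copies of Xenopus laevis. This gave 13 of the 15611 probe sets on the array, for 11 of the 7531 gene copies that the annotated probe sets name, and covered 8 of the 9 genes. No probe set was annotated as noto. The RefSeq table gives noto as a synonym of not.L and not.S, and these were read beside the others as probe sets outside the rule.

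Whole Xenopus laevis embryos at stage 12, late in gastrulation, were profiled on 4 one-colour Affymetrix arrays. Embryos had received radial injections at the 4-cell stage of 80 ng of a control morpholino, or of 40 ng each of 2 morpholinos against xSGK1, the frog form of the serine/threonine kinase SGK1. The series text describes 2 independent experiments, each with both injections, so every group held 2 arrays. Morpholinos are antisense oligonucleotides that act on translation or splicing and need not change the amount of their target transcript, so the sgk1.L signal (2321 and 3071 in the control and xSGK1 arrays of experiment 1, 2839 and 3300 in those of experiment 2) does not check the knockdown. Precision is limited by the number of arrays. The sources used here do not say whether the embryos of the 2 experiments came from different parents or how many were pooled per array, so p-values measure only the spread between these arrays.

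As background, the organizer instructs neighbouring cells to form dorsal mesoderm, neural plate and head. It does so largely by secreting proteins that bind and block growth factors of the BMP, Wnt and Nodal families in the extracellular space. Dorsal tissue is thereby left with little of the ventralising and posteriorising BMP and Wnt signals. The transcription factors of the organizer are induced by Nodal and maternal Wnt signals and maintain this secretion.

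Signals are the deposited linear signals scaled to a 2% trimmed mean of 500 per array. Log2 changes, xSGK1 minus control, were taken after adding 16 to each signal, which understates those of dim probe sets. Tests were limma fits over the 9251 probe sets whose mean signal reached 100, with Benjamini-Hochberg adjusted p-values and a threshold of 0.05. Of the 13 organizer probe sets 9 cleared that filter, 6 for transcription factors and 3 for secreted antagonists. Standard errors and 95% intervals belong to the fit in which the experiment was a block and are not adjusted for the number of probe sets. Of the territory marker gene copies on the array, 11 of 12 epidermal, 10 of 12 neural plate, 13 of 14 endodermal and 9 of 11 mesodermal ones had a mean signal above the filter. So did 9251 of the 15491 probe sets that were not controls. Without detection calls this does not show that a transcript was present. Between arrays, log2 signals correlated with a Pearson coefficient of 0.799 (control of experiment 1 with xSGK1 of experiment 2) to 0.955 (both arrays of experiment 1) across probe sets, a description only.

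No organizer probe set passed the test for injection. In the fit without a block 0 of the 9 passed, as did 0 of all 9251 probe sets (0%), of which 334 (3.61%) had an unadjusted p under 0.05. In simulations that fit recovered 0% of planted 4-fold changes, so a count of 0 without the block cannot show that genes were unchanged. With the experiment as a block 0 of the 9 passed, while 740 of all tested probe sets did (8%). The measured values nevertheless differed between experiments. In experiment 1 the organizer genes lay on both sides of the control level, with 3 of 9 lower in the xSGK1 array (45.6% of all tested probe sets were lower there) and a median log2 ratio of 0.10. In experiment 2, 7 of 9 were lower (45.5% of all tested), with a median of -0.84. There the signals of gsc.S, otx2.S and nog.L in the xSGK1 array were under 100. The medians over all tested probe sets were 0.04 in both experiments. The gene lhx1.L was more than 1.5-fold higher with xSGK1 morpholinos in both experiments. Among the arrays, the median over the 9 depended most on those of xSGK1. It was a log2 change of -0.39 with all 4, 0.0242 without the xSGK1 array of experiment 2 and -0.803 without that of experiment 1. Without the control array of experiment 1 it was -0.456, and without that of experiment 2 -0.322. These fits had no block, so with 1 array left out the injections were no longer balanced over the experiments. With all 4 arrays and a signal filter of 300, which kept 5 of the 9, the median was 0.0028 (0.027 over all tested at that filter).

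**Figure D1:**
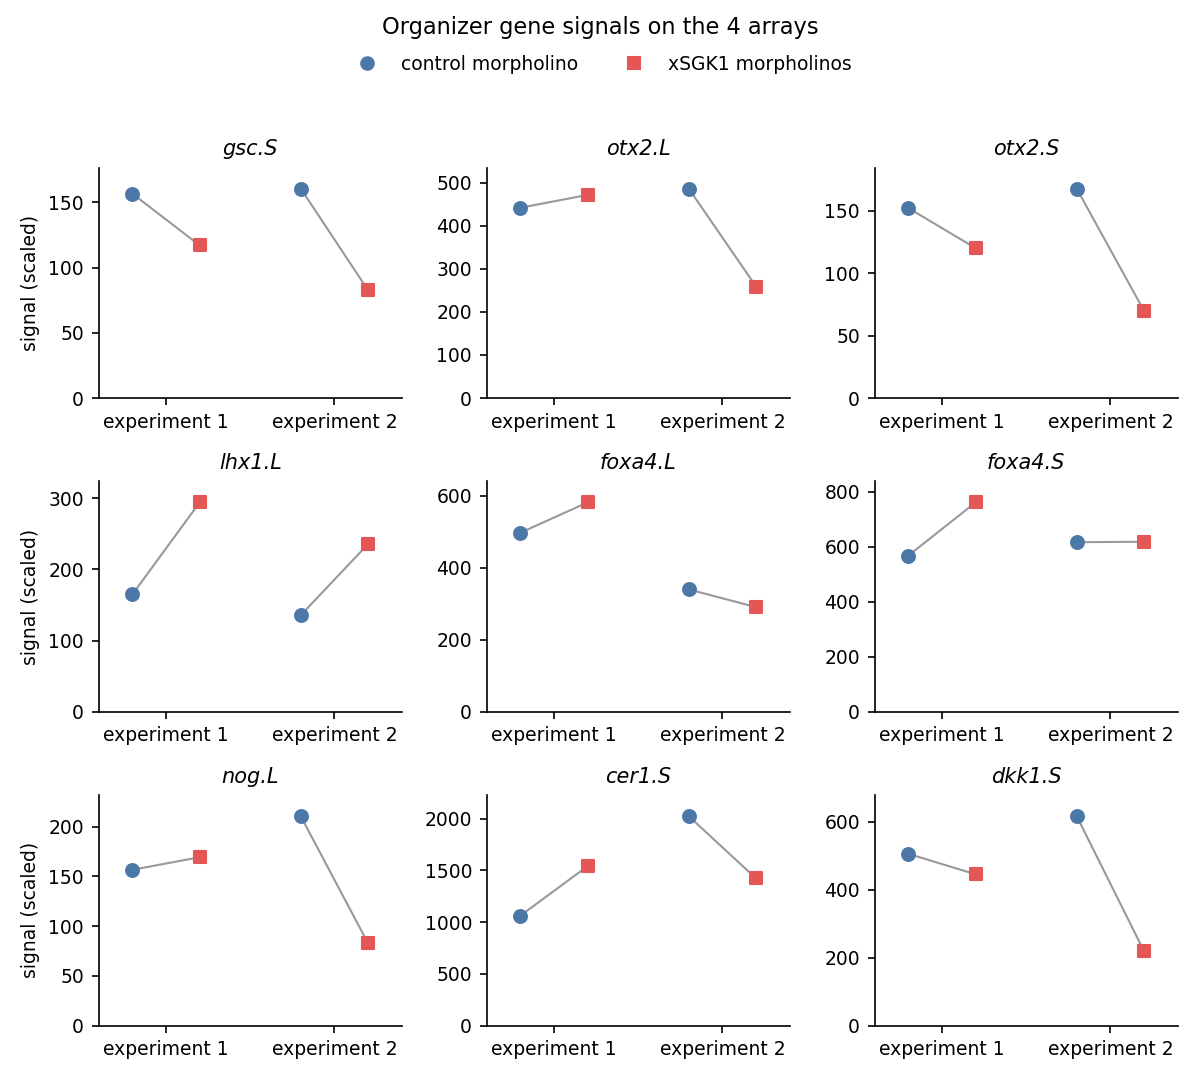
Scaled signal (vertical axis, linear, from 0) of the 9 organizer probe sets above the signal filter, in each experiment. Blue circles are control morpholino arrays, red squares xSGK1 morpholino arrays, 1 array each, and lines join the arrays of 1 experiment. The lines of lhx1.L slope upward in both experiments, while those of otx2.L, nog.L, cer1.S and foxa4.L change slope between them.

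The homeobox gene lhx1 (Xlim-1) encodes a LIM domain transcription factor needed for head formation in vertebrates. Its probe set lhx1.L measured 165 in the control array and 294 in the xSGK1 array of experiment 1, and 136 and 235 in those of experiment 2. Both xSGK1 arrays thus lay above both control arrays. The ratio of xSGK1 to control signal was 1.79 and 1.74, which made lhx1.L the only 1 of the 9 to reach 1.5-fold in the same direction in both experiments (5.55% of all tested probe sets did so upward and 4.75% downward). Its mean log2 change was 0.75 ± 0.17 (SE, n = 2 per group), with an interval from 0.33 to 1.18. The limma adjusted p was 0.999 without the block and 0.0537 with it. That blocked value sat at the threshold and crossed it under other processing, with a range from 0.0398 with cyclic loess normalization to 0.0767 with no signal filter.

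The gene gsc (goosecoid) encodes a homeobox repressor of the organizer that keeps ventral genes off. The gsc.S probe set gave 157 and 117 in experiment 1 and 161 and 82.6 in experiment 2, control first. The controls were close to each other and both xSGK1 arrays lay below them, with ratios of 0.747 and 0.514. The log2 change was -0.61 ± 0.21 (SE), and the limma adjusted p with the block was 0.119. The brighter of the gsc.L probe sets had a mean of 87.3, just under the filter, and gave 81.6 and 69.1, then 124 and 74.8, again with both xSGK1 arrays lowest. The other gsc.L probe set had signals between 4.90 and 24.8, too dim to compare. A further probe set, annotated to both gsc.L and gsc.S and so outside the rule, read 160 and 126, then 185 and 104 (log2 change -0.52 ± 0.20 SE, limma adjusted p = 0.153 with the block). Homeologous transcripts can cross-hybridise, so these probe sets need not be independent readings.

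The gene otx2 encodes a homeobox factor of the anterior endomesoderm and the future forebrain and midbrain. Its .S copy measured 152 and 120 in experiment 1 and 168 and 69.9 in experiment 2. Both xSGK1 arrays were below both controls, at ratios of 0.789 and 0.416, with a log2 change of -0.70 ± 0.25 (SE) and a blocked limma adjusted p of 0.125. The .L copy behaved differently in experiment 1, at 442 and 471 (ratio 1.07), and gave 486 and 259 in experiment 2 (ratio 0.532). The otx2.L groups therefore overlapped, and the log2 change was -0.39 ± 0.25 (SE, blocked limma adjusted p = 0.338). A second otx2.L probe set, with a mean of 51.3, stayed under the filter and read 62.9 and 60.6, then 50.5 and 31.4. The xSGK1 array of experiment 2 was thus the lowest for all 3 otx2 probe sets. As for gsc, these need not be independent readings, and the dimmest was under the filter.

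The fork head gene foxa4 (pintallavis) is expressed in the organizer, the notochord and the floor plate. The foxa4.S signal was 567 and 761 in experiment 1 and 616 and 618 in experiment 2, with ratios of 1.34 and 1.003. The groups did not overlap, but only by the small margin between the array pair of experiment 2, and the log2 change was 0.21 ± 0.17 (SE, blocked limma adjusted p = 0.439). The foxa4.L signal was 497 and 581, then 340 and 291. Here the experiments separated the arrays more than the injection did. The ratios to control were 1.17 and 0.856, and the mean log2 change was 0.00 ± 0.18 (SE), with an interval from -0.43 to 0.44.

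The homeobox gene noto, known in Xenopus as not, marks the forming notochord. The not.L probe set gave 557 and 650 in experiment 1 and 976 and 868 in experiment 2. It resembled foxa4.L in its ratios, 1.17 and 0.890, and its blocked log2 change was 0.03 ± 0.16 (SE, limma adjusted p = 0.932). The not.S probe set had a mean of 73.6 and read 65.6 and 50.2, then 88.9 and 89.7. The gene hhex encodes a homeobox repressor of the anterior endoderm, which underlies the head organizer. Its only probe set by the rule, hhex.L, ranged from 2.5 to 14.0 over the 4 arrays, and no comparison was made at that level.

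Of the secreted antagonists, Dickkopf-1, encoded by dkk1, blocks canonical Wnt signalling by binding LRP co-receptors. The dkk1.S signal was 506 and 445 in experiment 1 and 617 and 219 in experiment 2. The xSGK1 arrays were both below the controls, by a ratio of 0.881 in experiment 1 and 0.355 in experiment 2. The latter was the lowest ratio among the 9 in that experiment, a value that 1.52% of all tested probe sets equalled or undercut. The log2 change was -0.80 ± 0.30 (SE), with an interval from -1.53 to -0.08 and a limma adjusted p of 0.138 with the block. Over the other settings of that fit the adjusted p ran from 0.0446, with cyclic loess normalization, to 0.176.

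Noggin, encoded by nog, binds BMP ligands and prevents them from reaching their receptors. The nog.L probe set read 157 and 169 in experiment 1 and 211 and 82.7 in experiment 2. The xSGK1 array of experiment 2 was the lowest of the 4 and its own control the highest. The ratios were 1.08 and 0.393, and the mean log2 change was -0.55 ± 0.32 (SE, blocked limma adjusted p = 0.298). Cerberus, encoded by cer1, is a secreted protein of the anterior endomesoderm that binds BMP, Wnt and Nodal ligands in Xenopus. The cer1.S signal was 1062 and 1541 in experiment 1 and 2024 and 1422 in experiment 2. Its ratios of 1.45 and 0.703 lay on opposite sides of 1, and they averaged to a log2 change of 0.01 ± 0.24 (SE), with an interval from -0.58 to 0.61. The control arrays of cer1.S differed 1.91-fold between experiments and the xSGK1 arrays 0.923-fold.

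**Figure D2:**
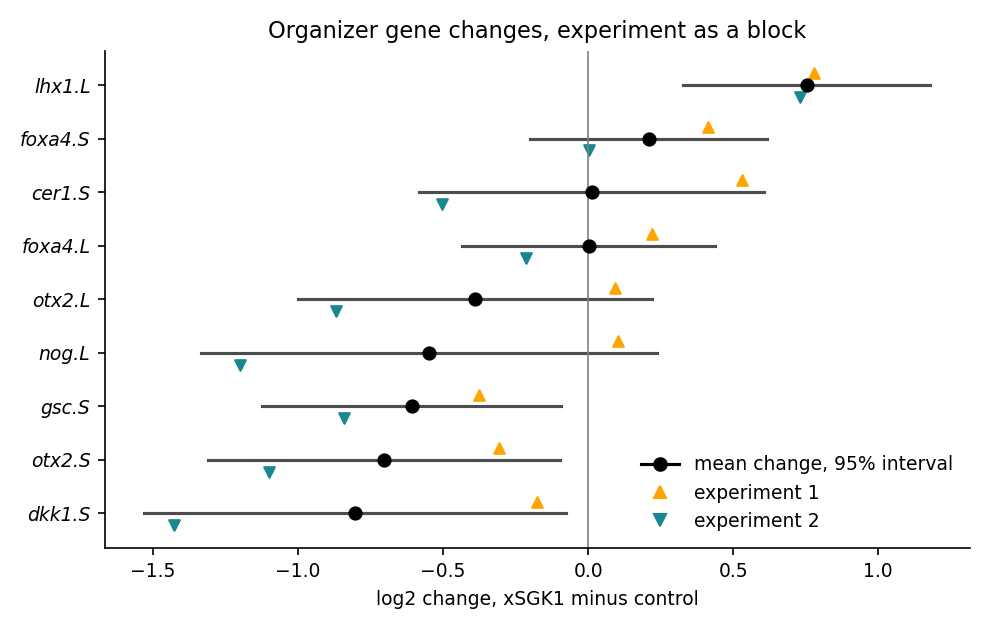
Mean log2 change of signal + 16 (horizontal axis, xSGK1 minus control) of the 9 organizer probe sets, black circles, with its unadjusted 95% interval (limma, experiment as a block). Orange triangles give the log2 ratio of experiment 1 and teal triangles that of experiment 2, and for lhx1.L they nearly coincide at 0.78 and 0.73.

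Read together, 2 of the 9 probe sets (lhx1.L and foxa4.S) had both xSGK1 arrays above both controls, as did 16.3% of all tested probe sets, and 3 (gsc.S, otx2.S and dkk1.S) had both below, as did 13.8%. Within experiment 1 only lhx1.L was at least 1.5-fold higher (11.4% of all tested), and 0 of 9 were at least 1.5-fold lower (8.47%). Within experiment 2 lhx1.L was again the 1 above that fold (11.6%). There, 5 of 9 were at least 1.5-fold lower, namely gsc.S, otx2.L, otx2.S, nog.L and dkk1.S, against 11% of all tested probe sets. For 4 of the 9, otx2.L, foxa4.L, nog.L and cer1.S, the experiments gave ratios on opposite sides of 1, as for 27.3% of all tested. With 1 array per injection in an experiment these counts carry no test.

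The xSGK1 to control ratio was lower in experiment 2 than in experiment 1 for each of the 9 probe sets, as for 54.7% of all those tested. The gap was widest for nog.L, where the log2 ratio of experiment 2 was -1.30 relative to that of experiment 1, and 0.886% of all tested probe sets had an equal or larger gap in either direction. For dkk1.S it was -1.25 (1.12% of all tested), for cer1.S -1.03 (2.45%) and for otx2.L -0.96 (3.25%). For lhx1.L it was -0.05, a size that 87.8% of all tested probe sets reached. The design has 1 array per injection and experiment, so whether the effect of the injection itself differed between experiments could not be tested.

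**Figure D3:**
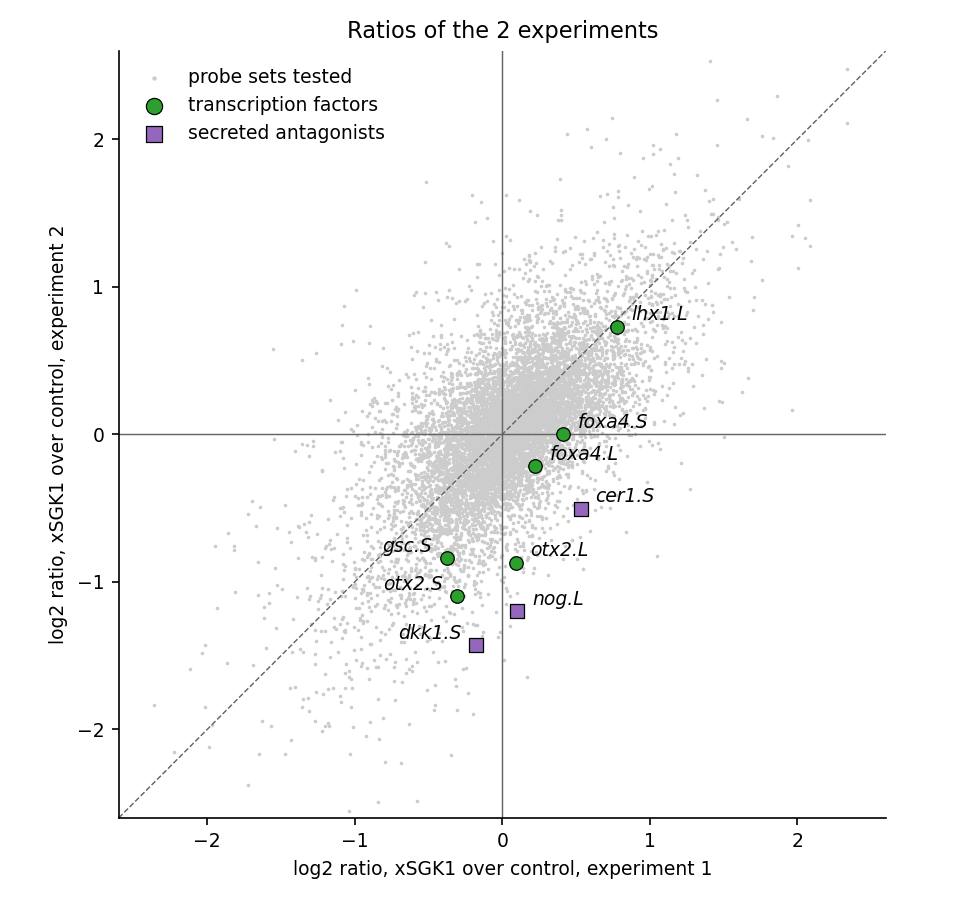
Log2 ratio of xSGK1 to control signal in experiment 1 (horizontal axis) against experiment 2 (vertical axis), for the tested probe sets (grey, 14 of 9251 lie outside the axes), the organizer transcription factors (green circles) and the secreted antagonists (purple squares). The dashed line marks equal ratios. Of the organizer genes lhx1.L lies near that line in the upper right, and dkk1.S, nog.L, otx2.L and cer1.S lie well below it.

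The size of the difference between the experiments was read from the same arrays, in a limma fit with the injection in the model. Of the 9 probe sets 1 passed, against 40.8% of all tested (20.9% higher and 19.9% lower in experiment 2). It was foxa4.L, lower in experiment 2 by a log2 difference of -0.74 ± 0.18 (SE, limma adjusted p = 0.021). When the injection was left out of the model foxa4.L no longer passed, and the calls over all 9251 tested probe sets fell from 3775 to 58. Outside the rule, not.L was higher in experiment 2 by 0.60 ± 0.16 (SE, limma adjusted p = 0.030). The other differences ran from -0.35 for dkk1.S and otx2.L to 0.40 for cer1.S. In the controls alone, the signal of experiment 2 over that of experiment 1 ran from 0.684-fold for foxa4.L and 0.823-fold for lhx1.L to 1.91-fold for cer1.S. In the xSGK1 arrays it ran from 0.488-fold for nog.L to 0.923-fold for cer1.S. Each such value compares 1 array with 1 array, and the directions were not counted over all tested probe sets.

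The other genes of the organizer listed for this comparison had 16 gene copies above the filter. Of these 0 rose and 1 fell with the block, where 4.09% of all tested probe sets rose and 3.91% fell, and 0 passed without it. The gene that fell was pcdh8.2.L, a protocadherin of the paraxial protocadherin type, which acts in the cell movements of gastrulation. It measured 2690 and 1889 in experiment 1 and 2506 and 1457 in experiment 2 (log2 change -0.64 ± 0.12 SE, limma adjusted p = 0.0365 with the block). The median log2 ratio of the list was 0.09 in experiment 1 and -0.65 in experiment 2, a sign change like that of the organizer genes chosen by name. The list shares tbxt.S with the mesoderm and notochord lists and foxd4l1.1.S with the neural plate list. Likewise wnt8a.L is in both the ligand and the mesoderm list, so the lists are not fully separate readings.

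Of the listed ligands and receptors of the BMP, Wnt and Nodal pathways, 1 of 21 gene copies rose and 1 fell with the block. These shares were near those of all tested probe sets (4.09% higher and 3.91% lower), and 0 passed without the block. The gdf1.S signal, which encodes the maternal growth factor Vg1, went from 828 to 1712 in experiment 1 and from 872 to 1710 in experiment 2 (0.996 ± 0.13 SE on the log2 scale, with a limma adjusted p of 0.0232). That of the BMP ligand gene bmp7.1.L went from 1790 to 938 and from 1269 to 706 (-0.88 ± 0.13 SE on the log2 scale, with a limma adjusted p of 0.0264). The brighter bmp7.2.L of the same list went from 3725 to 3981 and from 7497 to 5435 (limma adjusted p = 0.427 with the block). The list medians, -0.10 and -0.04, were close to each other. Among 21 gene copies listed as upstream inducers, 0 passed with or without the block (list medians 0.11 and -0.0029). The list held Wnt and Nodal signalling genes and others such as vegt, ldb1 and mixer, the last also in the endoderm list. Those with the smallest p were the endodermal homeobox gene mixer.S (309 and 574, then 713 and 1024, limma adjusted p = 0.0566) and the Nodal co-receptor gene tdgf1.3.L (3520 and 5361, then 4637 and 5655, limma adjusted p = 0.0608). Both were higher with xSGK1 morpholinos in each experiment.

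Of the listed ventral genes, 0 of 24 gene copies rose and 5 fell with the block, and 0 passed without it. With the block 4.09% of all tested probe sets rose and 3.91% fell. Of the 24, 10 were called lower in experiment 2 than in experiment 1 (19.9% of all tested). The 5 were szl.L, a secreted inhibitor of Chordin proteolysis in the ventral centre (458 and 139, then 95.9 and 33.7), tll1.S, a protease of the Tolloid type that cleaves Chordin (848 and 308, then 599 and 242), the homeobox genes msx1.L (1779 and 1078, then 2103 and 924) and evx1.L, and the zinc finger gene gata3.S (481 and 219, then 122 and 59.0). The groups overlapped for szl.L and gata3.S and not for tll1.S, msx1.L and evx1.L. For szl.L the log2 difference was -1.86 between experiments (2 minus 1) and -1.39 between injections. For gata3.S these were -1.75 and -0.98. The lists were taken up with earlier results of these arrays known, so the list counts are descriptions. The list medians were -0.27 in experiment 1 and -0.47 in experiment 2, so unlike the organizer lists the ventral list was below 0 in both.

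**Figure D4:**
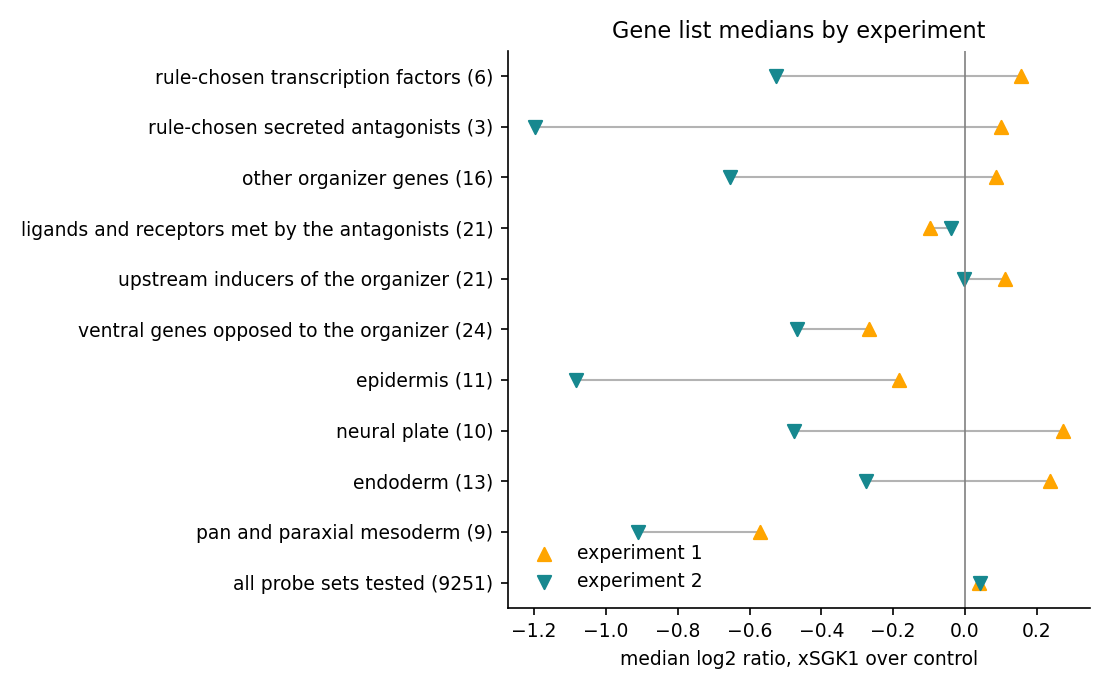
Median log2 ratio of xSGK1 to control signal (horizontal axis) per gene list in experiment 1 (orange) and experiment 2 (teal), with the number of probe sets or gene copies above the signal filter in brackets. The organizer lists, the upstream inducers, the neural plate and the endoderm lie above 0 in experiment 1 and below it in experiment 2, the inducers only just (-0.0029). The ligand, ventral, epidermal and mesodermal lists are below 0 in both, and all tested probe sets sit at 0.04.

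Markers of other territories were read from the same arrays, and 0 of them passed without the block. With it, 4.09% of all tested probe sets rose and 3.91% fell. Of 11 epidermal gene copies 4 fell and 0 rose, the intelectin gene itln1.L (ratios of 0.182 and 0.106) and 3 embryonic keratins (krt12.4.L, krt12.4.S and krt12.5.S), and the list had medians of -0.18 and -1.08 in experiments 1 and 2. For these 4 the groups overlapped. The experiments differed about as much as the injections, by log2 differences of -2.82 (experiment 2 minus 1) and -2.65 (xSGK1 minus control) for itln1.L and of -2.97 and -2.46 for krt12.4.L. Of the other epidermal copies, grhl1.L, grhl3.L and both dlx3 copies were lower with xSGK1 morpholinos in both experiments. The ratios of foxi1.L (0.878 and 2.85), tfap2a.L (1.72 and 0.750) and dlx5.L (1.12 and 0.772) lay on opposite sides of 1. Of 9 mesodermal ones 4 fell and 0 rose, hes5.1.L, msgn1.L, tbx6.L and myod1.S, which act in presomitic mesoderm and muscle, with medians of -0.57 and -0.91. Of the mesodermal copies that did not pass, myf5.L and myod1.L were lower with xSGK1 morpholinos in both experiments. The copies tbxt.S, wnt8a.L and fgf8.L were higher with them in experiment 1 and lower in experiment 2. Between experiments, 5 of the 11 epidermal and 6 of the 9 mesodermal copies were called lower in experiment 2 (19.9% of all tested). Of 10 neural plate copies 0 passed (medians 0.27 and -0.48), the smallest p being that of the replication regulator gmnn.L (limma adjusted p = 0.075) and foxd4l1.1.S (0.151). These went opposite ways, with ratios of 1.21 and 1.80 for gmnn.L and of 0.889 and 0.538 for foxd4l1.1.S. Of 13 endodermal copies 1 fell, a2m.S (ratios of 0.480 and 0.601), and 0 rose, with medians of 0.24 and -0.28. Of those that did not pass, darmin.L (1.49 and 1.40), mixer.L (1.96 and 1.47) and mixer.S (1.86 and 1.43) were higher with xSGK1 morpholinos in both experiments. Lower in both were gata6.L, foxa1.S and both sox17a copies. The ratios of the gata4 and gata5 copies and of sox17b.1.S lay on opposite sides of 1. The notochord markers held 3 copies above the filter, both foxa4 copies among them, with medians of 0.27 and -0.21, and tbxt.S, the Brachyury gene, gave 2752 and 3314, then 4018 and 2580 (limma adjusted p = 0.590 with the block). In whole embryos, fewer cells of a type and less RNA per cell cannot be told apart, and the part of these territories in the organizer values was not tested.

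For the organizer genes whose log2 signals spanned at least 1 over the 4 arrays, the nearest profile among 6171 other probe sets of 1 gene was looked up, by the Euclidean distance between mean-centred log2 signals over those 4 arrays. For dkk1.S this was bmp4.S, a BMP ligand gene, at a distance of 0.13, with signals of 768 and 647, then 827 and 331. For nog.L it was hunk.L, a kinase gene, at 0.12. For otx2.S it was the keratin gene krt70.S at 0.08 (442 and 358, then 476 and 231), and for lhx1.L the gene ethe1.L at 0.07 (226 and 419, then 201 and 336). The ethe1.L probe set is of a type that can cross-hybridise. With so few arrays such neighbours are a description of these profiles.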

How the data were processed

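RNA of 4 samples (100 ng each) was labelled by a 2-cycle protocol, per the labels' protocols. Deposited were linear signal intensities, 1 per probe set and array, without detection calls. The submitters' processing notes name MAS5 and GCOS, and the series text gives GCOS version 1.4. Each array had a 2% trimmed mean of 500.05 to 500.06, as after scaling. Medians were 161 to 174.

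Here signals were scaled to exactly 500, and log2(signal + 16) was analysed after removing 120 control probe sets and any with a mean under 100. Gene names are those of the platform annotation, updated by gene identifier through the RefSeq table of Xenopus_laevis_v10.1, which matched each of the 13. Coordinates are left out because the array's build is not given in the sources used here. Other lists used the brightest probe set of a gene copy.

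limma 3.58.1 (R 4.3.3, intensity trend, two-sided) compared the injections without a block, the design laid down, and with the experiment as a block. Replicate numbers were read as experiments, because the series text describes independent experiments with both injections. The differences between experiments in the controls and in the xSGK1 arrays correlated across probe sets (Pearson 0.838, minimum 0.1). With 2 arrays per group the smallest exact permutation p is 0.333. Simulations of this comparison over 9251 probe sets planted 200 changes of 1.5- to 4-fold per run, equal in both experiments. With the block 59.6% of 2-fold changes were recovered, and without it 0% of 4-fold changes. Of all calls with the block, pooled over the planted folds, 8.33% were false. That share belongs to the simulated arrays and was not measured for the calls reported here.

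The genes, lists and tests were chosen with earlier results of these data known. Named were every organizer probe set and, per other list, up to 4 genes that passed with the block by smallest p, or up to 2 where none did. The ventral gene evx1.L was named after its value was seen, to complete a count. So were bmp7.2.L, beside bmp7.1.L, and the epidermal, mesodermal and endodermal copies that did not pass, to describe their lists. Alternatives were other offsets, filters, normalizations and variance models, probe sets that can cross-hybridise left out, the block, and each array left out. Figures were drawn with matplotlib 3.10.9.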

Additional observations from a re-analysis of the deposited data

Results flagged for a closer look

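For 4 of the 9 organizer probe sets the xSGK1 array was above its control in one experiment and below it in the other, as for 27.3% of all tested probe sets. The log2 ratio of experiment 2 minus that of experiment 1 was -0.96 for otx2.L, -0.43 for foxa4.L, -1.30 for nog.L and -1.03 for cer1.S. With 1 array per injection in each experiment, the difference was not tested.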

How the results depend on the processing

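Without a block the number of probe sets called for injection was 0 under every other offset, filter, normalization and variance model tried, and 0 to 110 with 1 array left out. It was 110 when the xSGK1 array of experiment 1 was dropped, 7 when that of experiment 2 was, and 0 when either control was. With the replicate block it was 740. The block combined with another setting, chosen after seeing the data, gave 827 with an offset of 1, 1136 with 64, 664 with no signal filter, 490 with a filter of 300, 524 with quantile and 1531 with cyclic loess normalization, 543 with no intensity trend and 775 without cross-hybridising probe sets. Among the 9 organizer probe sets the block combined with an offset of 64 called 1 (lhx1.L), with cross-hybridising probe sets left out 1 (lhx1.L) and with cyclic loess 2 (lhx1.L and dkk1.S, the latter at an adjusted p of 0.0446). The other fits for injection called 0 of them, also with any 1 array left out (0 to 0). The cause of these changes was not tested.

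The median log2 change of the 9, -0.39, ran from -0.803 without the xSGK1 array of experiment 1 to 0.0242 without that of experiment 2. Fits with 1 array left out had no block, so in them the injections were not balanced over the experiments. With 1 array left out otx2.L ran from -0.803 to 0.0242, cer1.S from -0.447 to 0.473 and foxa4.L from -0.478 to 0.484, whereas lhx1.L stayed between 0.604 and 0.905 and dkk1.S between -1.29 and -0.316. The foxa4.L change turned to -0.056 with quantile and -0.066 with cyclic loess normalization, with or without the block. A filter of 300 left no value for gsc.S, otx2.S, lhx1.L and nog.L. The median log2 change of the remaining 5 organizer probe sets was 0.0028, where that of all probe sets tested at this filter was 0.027. Between experiments, leaving the injection out of the model lowered the calls from 3775 to 58 and those among the 9 from 1 to 0.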
